A study of Mus musculus with 12 samples.

Results

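The 9 genes Ocln, Tjp1, Tjp3, Cgn, Marveld2, Marveld3, F11r, Pard3 and Crb3 encode tight junction and apical polarity proteins, and were taken by symbol from the gene count tables of 12 mouse neuroendocrine thyroid carcinomas. All 9 were found among 23284 gene rows, and all 9 were among the 14989 genes that passed the filter on low counts. The tumours came from a genetically engineered mouse model, and the study's stated aim was to identify genes regulated by Crebbp, which encodes a histone acetyltransferase. By genotype label, 7 tumours were Rb1/Trp53 (shortened to RP-labelled) and 5 were Rb1/Trp53/Crebbp (RPC-labelled), so that Rb1 and Trp53 were named for every tumour and Crebbp alone separated the groups. No treatment was named, and the sources used here do not give the alleles, the Cre driver, the age and sex of the mice or the number of mice. Because nothing in the labels says that tumours came from separate mice, the p-values measure only the spread between these samples.

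Tight junctions seal the space between neighbouring epithelial cells at their apical end and separate the apical from the basolateral membrane. Occludin, tricellulin and the junctional adhesion molecules span the membrane, and the zonula occludens proteins and cingulin form a cytoplasmic plaque that ties them to the actin cytoskeleton. The Crumbs and Par complexes set the apical domain and position the junction. In the thyroid, follicular cells are polarised around a lumen and keep thyroglobulin behind their tight junctions, whereas the calcitonin-producing C cells lie beside the follicles without reaching the lumen.

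Of the 9 members, 4 fell in RPC-labelled tumours (edgeR adjusted p under 0.05), namely Tjp3, Crb3, Cgn and F11r, and 0 rose. Of all 14989 tested genes, 8.61% were called lower and 9.64% higher. The promoters of these 4 genes are shown so that their sequences stand beside their values. Each is the 250 bases before a RefSeq transcript start on GRCm38.p6, read 5′ to 3′ on the gene's strand, and where RefSeq listed more than 1 start a single window is shown. They lie at chr10:81291582-81291831 on the minus strand for Tjp3, chr3:94786483-94786732 on the minus strand for Cgn, chr1:171437311-171437560 on the plus strand for F11r and chr17:57061981-57062230 on the plus strand for Crb3. Capitals mark the E-box CAGGTG, which Snail and Zeb repressors can bind, and the GC box CCGCCC, which Sp factors can bind, each on either strand.
Tjp3: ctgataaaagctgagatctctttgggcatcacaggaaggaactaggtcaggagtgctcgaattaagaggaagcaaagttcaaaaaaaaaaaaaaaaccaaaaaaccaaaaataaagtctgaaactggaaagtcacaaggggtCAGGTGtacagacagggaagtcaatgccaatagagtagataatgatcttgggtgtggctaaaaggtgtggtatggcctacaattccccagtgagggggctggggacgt
Cgn: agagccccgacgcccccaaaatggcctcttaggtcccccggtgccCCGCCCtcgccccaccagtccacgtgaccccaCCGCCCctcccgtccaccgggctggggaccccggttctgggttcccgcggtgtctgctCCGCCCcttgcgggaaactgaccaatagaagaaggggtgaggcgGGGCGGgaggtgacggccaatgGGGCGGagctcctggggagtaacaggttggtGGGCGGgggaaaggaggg
F11r: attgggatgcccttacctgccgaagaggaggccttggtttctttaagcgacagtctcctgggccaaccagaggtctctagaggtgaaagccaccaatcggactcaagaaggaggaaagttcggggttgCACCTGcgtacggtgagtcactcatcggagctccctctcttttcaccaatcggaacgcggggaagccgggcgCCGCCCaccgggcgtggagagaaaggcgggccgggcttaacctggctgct
Crb3: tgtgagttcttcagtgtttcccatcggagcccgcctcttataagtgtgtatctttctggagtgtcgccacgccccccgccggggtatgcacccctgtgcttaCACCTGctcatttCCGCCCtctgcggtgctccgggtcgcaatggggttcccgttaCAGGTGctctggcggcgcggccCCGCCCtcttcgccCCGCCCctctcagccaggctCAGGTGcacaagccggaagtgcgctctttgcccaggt
The Tjp3 window held 1 E-box and 0 GC boxes, and 43.2% of its bases were G or C. Cgn had the opposite make-up, with 6 GC boxes, 0 E-boxes and 70.4% G or C. F11r held 1 of each, and Crb3 held 3 of each. A second RefSeq window of Tjp3, not shown, also held 1 E-box and 0 GC boxes, with 57.2% G or C. The median over all RefSeq windows was 52.4%. RefSeq windows of 300 bases around the start were found for 8 members, 13 windows in all. CAGGTG or its reverse complement was in at least 1 window of 6 of these 8 members (Crb3, F11r, Marveld2, Ocln, Pard3 and Tjp3), against 22.6% of all 27025 genes with a window. CCGCCC or its reverse complement was in windows of 7 of the 8 (all but Tjp3), against 38.2% of all genes. A gene with more windows has more places to hold either. Counted by window, CAGGTG was in 10 of the 13 and in 20.2% of all 32851 windows. CCGCCC was in 10 of the 13 and in 35.7% of all windows. Some windows of the same gene overlap, and enrichment was not tested. AACCGGTT, the letters of a Grhl site, and TGACGTCA, a cAMP response element, were in 0 member windows, and in 0.174% and 2.03% of all genes. In the 250 bases before the start, E-boxes and GC boxes did not overlap each other in any member window. Both the members that fell and those not called held E-boxes and GC boxes.

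RP-labelled libraries held between 9.11 M and 57.3 M gene counts, RPC-labelled libraries between 9.14 M and 20.5 M, and the lowest count of any member in any tumour was 130, for Crb3. The gene named in the genotype label did not check the labels. In CPM, which are counts per 1 M of the TMM-scaled library, Crebbp averaged 54.6 (SD 20.04, n = 7) in the RP-labelled and 53.9 (SD 4.19, n = 5) in the RPC-labelled group. Its edgeR adjusted p was 0.957 (log2 fold change -0.02 ± 0.20 SE), and counts over a whole gene do not show the loss of exons. C cell markers were present in every tumour. The 10 listed summed to 95659 to 233591 CPM (median 204687) in RP-labelled and 25723 to 138737 CPM (median 88827) in RPC-labelled tumours. Among them Calca averaged 156825 and 67625 CPM (log2 fold change -1.21 ± 0.50 SE, edgeR adjusted p = 0.103). Summed follicular cell markers ranged from 2038 to 9646 CPM in RP-labelled and from 394 to 5959 CPM in RPC-labelled tumours, and all 10 adipocyte markers were called lower in RPC-labelled tumours. Sums of airway and squamous markers (44.3 to 2231 CPM against 25.4 to 1732), parathyroid (0.231 to 2510 against 0.378 to 1070), fibroblast (529 to 3244 against 427 to 1619), immune (25.7 to 135 against 23.9 to 50.1) and skeletal muscle markers (5.20 to 2938 against 6.23 to 3173) overlapped between the groups. In bulk tumours, fewer cells of a type and less RNA per cell cannot be told apart.

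The genotypes were compared by edgeR's quasi-likelihood test over all 14989 genes, with genes called at a Benjamini-Hochberg adjusted p under 0.05. The members' 4 lower calls stood beside 8.61% of all tested genes called lower, their 0 higher calls beside 9.64% called higher, and their 4 calls in either direction beside 18.3% called. The members were chosen with earlier results of these data known, so these shares do not test the set. Only 1 of the 9, Tjp3, had groups that did not overlap, beside 6.26% of all genes. Without adjustment 5 of the 9 members had p under 0.05, beside 35.6% of all tested genes, the fifth member being Ocln, which was higher. DESeq2 also called 0 members higher, and limma voom called 1, Pard3. The median log2 fold change was -0.36 over the members and -0.02 over all genes. Over all genes 1445 were called higher and 1291 lower; with total counts as the only scaling, 78.0% of the calls were higher, the median of all genes moved to 0.18, Ocln was called higher and Cgn was not called.

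**Figure D1:**
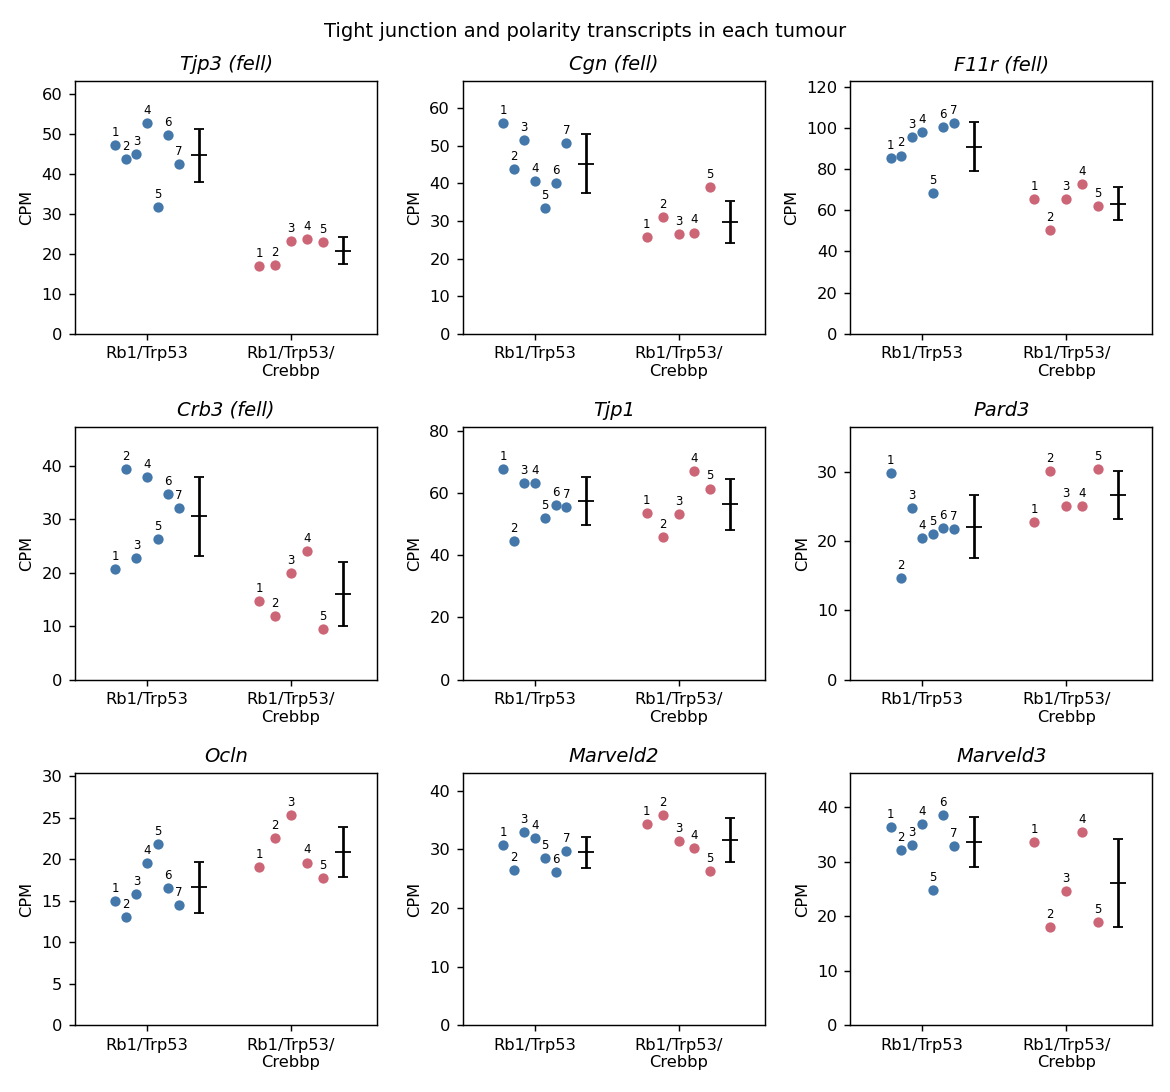
Level of each member in each tumour, in CPM (TMM-scaled), with RP-labelled tumours (n = 7) on the left and RPC-labelled tumours (n = 5) on the right of each panel. Each point is a tumour and the bars are the group mean and SD; Tjp3 is the panel in which no point of one group lies within the range of the other.

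Among the plaque proteins, Tjp3 and Cgn fell and Tjp1 did not pass the test. Tjp3 encodes ZO-3, an epithelial zonula occludens scaffold, and Tjp1 encodes its relative ZO-1, which is also found at junctions of non-epithelial cells. Tjp3 ranged from 31.7 to 52.7 CPM with a median of 44.97 in RP-labelled tumours and was 16.9, 17.2, 23.2, 23.8 and 23.0 CPM in RPC-labelled replicates 1 to 5. Every RPC-labelled tumour was below every RP-labelled tumour. The means were 44.6 ± 6.70 (SD, n = 7) and 20.8 ± 3.45 CPM (SD, n = 5). On the log2 scale the difference was -1.10 ± 0.14 (SE), or 2.14-fold lower, with an edgeR adjusted p of 0.00153. The call held when any single tumour was left out, with values between -1.19 and -1.03. Exons of Tjp3 overlap those of Apba3 on the opposite strand. Since the sources used here do not say whether strand was used in counting, their reads cannot be told apart where they overlap. Apba3 was 34.5 CPM in RP-labelled and 33.1 CPM in RPC-labelled tumours (log2 fold change -0.06 ± 0.12 SE, edgeR adjusted p = 0.753). The part of the overlap in the Tjp3 values was not tested.

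Cgn encodes cingulin, a plaque protein that binds ZO proteins, actomyosin and exchange factors of small GTPases. It ranged from 33.5 to 56.0 CPM with a median of 43.8 in RP-labelled tumours, and was 25.6, 31.0, 26.5, 26.9 and 39.1 CPM in RPC-labelled replicates 1 to 5. The groups overlapped through a pair of tumours, RPC-labelled replicate 5 being higher than RP-labelled replicate 5. RPC-labelled replicate 5 also had the highest airway and squamous (1732 CPM), skeletal muscle (3173 CPM) and endothelial marker sums (224 CPM) of its group. Whether these bear on its Cgn level was not tested. The means were 45.2 ± 7.86 (SD, n = 7) and 29.8 ± 5.59 CPM (SD, n = 5). On the log2 scale the difference was -0.60 ± 0.15 (SE), or 1.51-fold lower, with an edgeR adjusted p of 0.0197. Without RPC-labelled replicate 1 the value was -0.55 and the call was lost (edgeR adjusted p = 0.0530). Without RPC-labelled replicate 5 it was -0.73 (edgeR adjusted p = 0.0167).

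Tjp1 gave a different picture from Tjp3 and Cgn. It ranged from 44.6 to 67.8 CPM with a median of 56.0 in RP-labelled tumours, and was 53.7, 46.0, 53.3, 67.2 and 61.5 CPM in RPC-labelled replicates 1 to 5. All 5 RPC-labelled values lay within the RP-labelled range. The log2 fold change was -0.03 ± 0.12 (SE; edgeR adjusted p = 0.888). Its sign changed with the scaling and is given with the other settings in the closing part.

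Of the 4 membrane proteins, F11r fell and Ocln, Marveld2 and Marveld3 did not pass the test. F11r encodes JAM-A, an immunoglobulin-like adhesion molecule that recruits the Par complex to young junctions. It ranged from 68.1 to 102.3 CPM with a median of 95.7 in RP-labelled tumours, and was 65.4, 50.3, 65.4, 72.7 and 62.1 CPM in RPC-labelled replicates 1 to 5. Again the overlap came from a pair of tumours, with RPC-labelled replicate 4 higher than RP-labelled replicate 5. The means were 90.9 ± 11.95 (SD, n = 7) and 63.2 ± 8.19 CPM (SD, n = 5). On the log2 scale the difference was -0.52 ± 0.12 (SE), or 1.44-fold lower, with an edgeR adjusted p of 0.0146. This call held when any single tumour was left out, with values between -0.60 and -0.47.

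Ocln, Marveld2 and Marveld3 encode occludin, tricellulin and MARVEL domain-containing protein 3, the tight junction family with a MARVEL domain. Ocln ranged from 13.1 to 21.8 CPM with a median of 15.8 in RP-labelled tumours, and was 19.1, 22.5, 25.4, 19.6 and 17.8 CPM in RPC-labelled replicates 1 to 5. The RPC-labelled tumours lay toward the upper end of the RP-labelled range or above it, with a log2 fold change of 0.33 ± 0.14 (SE) whose unadjusted p was 0.0403 and whose edgeR adjusted p was 0.123. Marveld2, the neighbour of Ocln on chromosome 13, ranged from 26.2 to 33.0 CPM with a median of 29.7 in RP-labelled tumours. It was 34.4, 35.9, 31.4, 30.2 and 26.4 CPM in RPC-labelled replicates 1 to 5, so the groups overlapped broadly (log2 fold change 0.10 ± 0.10 SE; edgeR adjusted p = 0.486). Marveld2 also varied least among RP-labelled tumours, with a coefficient of variation of 8.94%, against 24.1% for Crb3, the most variable member.

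Marveld3 split the RPC-labelled group. It ranged from 24.8 to 38.6 CPM with a median of 33.1 in RP-labelled tumours, and was 33.5, 18.1, 24.6, 35.4 and 18.9 CPM in RPC-labelled replicates 1 to 5. Replicates 1 and 4 lay within the RP-labelled range and replicates 2, 3 and 5 below it. The log2 fold change was -0.36 ± 0.18 (SE; edgeR adjusted p = 0.172).

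Of the polarity genes, Crb3 fell and Pard3 did not pass the test. Crb3 encodes the epithelial Crumbs protein, a small apical membrane protein that anchors the Crumbs complex. It ranged from 20.7 to 39.4 CPM with a median of 32.1 in RP-labelled tumours, and was 14.7, 11.9, 19.95, 24.1 and 9.56 CPM in RPC-labelled replicates 1 to 5. RPC-labelled replicate 4 was above RP-labelled replicates 1 and 3, and the other RPC-labelled tumours were below all RP-labelled ones. The means were 30.6 ± 7.38 (SD, n = 7) and 16.05 ± 5.93 CPM (SD, n = 5). On the log2 scale the difference was -0.93 ± 0.24 (SE), or 1.90-fold lower, with an edgeR adjusted p of 0.0227. The call was lost without RPC-labelled replicate 1 (-0.90; edgeR adjusted p = 0.0559) and without RPC-labelled replicate 2 (-0.86; edgeR adjusted p = 0.0627). Crb3 shares exonic positions with Dennd1c on the opposite strand, which stood at 11.4 and 9.40 CPM (log2 fold change -0.28 ± 0.23 SE; edgeR adjusted p = 0.401).

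Pard3 encodes the scaffold of the Par complex, which binds JAM-A and atypical protein kinase C. It ranged from 14.7 to 29.9 CPM with a median of 21.8 in RP-labelled tumours, and was 22.8, 30.1, 25.0, 25.0 and 30.4 CPM in RPC-labelled replicates 1 to 5. The RPC-labelled tumours lay above the RP-labelled median but within or just above the RP-labelled range, and the log2 fold change of 0.27 ± 0.15 (SE) had an edgeR adjusted p of 0.210. In RPC-labelled replicates 2 and 5 Pard3 was highest of its group while Crb3 and Marveld3 were lowest.

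The levels of different members were compared per kilobase of annotated exon (GENCODE M21 exons merged over transcripts), which treats each gene's whole exonic length as transcribed. F11r was highest on this scale in RP-labelled tumours at 34.1 ± 4.49 CPM per kb, followed by Crb3 at 19.6 ± 4.72, Tjp3 at 12.02 ± 1.805, Marveld3 at 10.2 ± 1.39, Marveld2 at 8.72 ± 0.780, Cgn at 7.499 ± 1.31, Tjp1 at 7.36 ± 1.01, Ocln at 3.94 ± 0.727 and Pard3 at 1.52 ± 0.316 (SD, n = 7). Neighbours from Tjp3 to Tjp1 in this order differed by no more than the sum of their SDs. In RPC-labelled tumours F11r and Crb3 were still the highest, at 23.7 ± 3.07 and 10.3 ± 3.79 CPM per kb (SD, n = 5). Tjp3, at 5.61 ± 0.928, was then below Marveld2, Marveld3 and Tjp1. Cgn and Ocln both stood at 4.95 CPM per kb in RPC-labelled tumours.

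Ratios between members were compared within tumours. A ratio of one member to another is free of the library scaling, apart from the prior count. Tjp1 minus Tjp3 on the log2 CPM scale was 0.37 ± 0.23 (SD, n = 7) in RP-labelled and 1.44 ± 0.17 (SD, n = 5) in RPC-labelled tumours. The difference was 1.07 (two-sided exact permutation p = 0.00253, the smallest that 792 splits allow). The corresponding values for Ocln minus Tjp3 were -1.42 and 0.01, with the same p, so that occludin counts drew level with those of ZO-3. Cgn minus Pard3 went from 1.04 to 0.15, also with an exact p of 0.00253. These were 3 of 36 pairs, of which 8 did not overlap between groups and 20 had an adjusted p under 0.05 by exact permutation with Benjamini-Hochberg adjustment over the 36 pairs. Of these 20 pairs, 17 set a member that fell against a member that was not called, out of 20 pairs of that kind, so the count mostly restates the 4 lower calls. The pairs share members and were tested after the members' values were seen. Among the members that fell, the ratios of Tjp3 to Crb3 (difference -0.13, exact permutation p = 0.611) and of Cgn to F11r (-0.07, exact permutation p = 0.667) did not pass, and neither did that of Ocln to Pard3 (0.05, exact permutation p = 0.826). Tjp3 dropped further than Cgn did (difference -0.50, adjusted p = 0.0409 over the 36 exact permutation tests) and further than F11r did (-0.58, adjusted p = 0.0114).

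**Figure D2:**
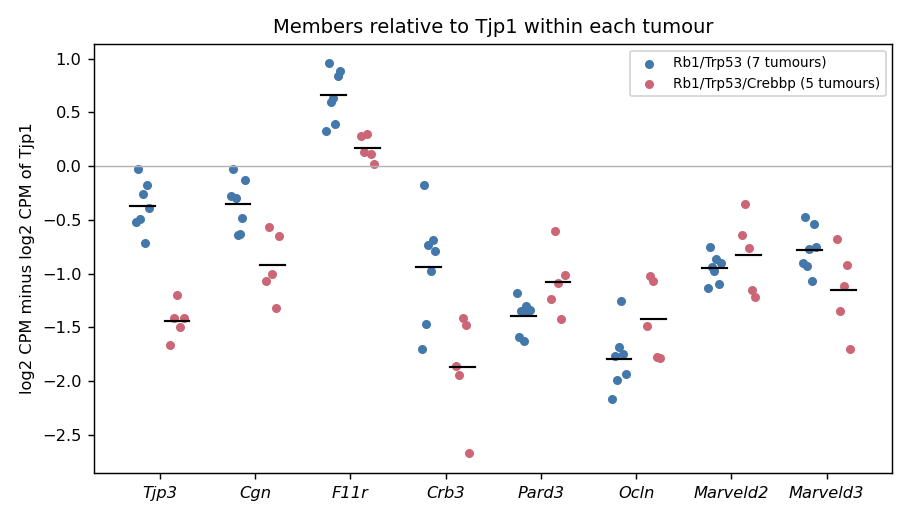
Each member relative to Tjp1 in the same tumour, as log2 CPM minus the log2 CPM of Tjp1, for RP-labelled (n = 7) and RPC-labelled (n = 5) tumours. Points are tumours and short lines are group means; for Tjp3 the mean moves from -0.37 to -1.44 and the groups do not overlap.

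Within the 7 RP-labelled tumours the members did not vary as a block. Of 36 pairs, 27 had a positive and 9 a negative Pearson r of log2 CPM, with a median of 0.225 and a range from -0.830 to 0.973. The closest pair was Tjp3 and Marveld3 (r = 0.973, exact permutation p = 0.00298; Spearman rho = 0.929, exact permutation p = 0.00675; adjusted p = 0.0929 over the 36 pairs), and r was 0.951 without the 2 tumours farthest from the Tjp3 median. The pair most opposed was Pard3 and Crb3 (r = -0.830, exact permutation p = 0.00516; rho = -0.857, exact permutation p = 0.0238), with r = -0.751 without the 2 farthest tumours. Tjp1 and Pard3 gave r = 0.880 (exact permutation p = 0.00992; rho = 0.643), which rested on the 2 tumours farthest from the Tjp1 median, since r was 0.361 without them. Of these pairs 5 had an unadjusted p under 0.05 and 0 passed after adjustment, and with DESeq2 scaling 0 passed as well.

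Particular tumours carried much of the spread. RP-labelled replicate 5, the deepest library, was lowest of its group for 4 members, Tjp3, Cgn, F11r and Marveld3, and highest for Ocln. RP-labelled replicate 2 was lowest for 3 members, among them Pard3 and Tjp1. In the RPC-labelled group replicate 4 was highest for 5 of the 9 members, and replicates 1, 2 and 5 were each lowest for 3. RPC-labelled replicate 4 also had the highest follicular marker sum of its group, 5959 CPM, and the highest C cell marker sum, 138737 CPM.

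Levels of cell type markers are set beside Crb3, the most variable member among RP-labelled tumours. Its 4 highest values, between 32.1 and 39.4 CPM, were in RP-labelled replicates 2, 4, 6 and 7, the tumours with the highest adipocyte sums. Those sums were 654 to 1891 CPM, against 159 to 228 CPM in the remaining 3 and 128 to 187 CPM in RPC-labelled tumours. The same 4 libraries had the largest shares of reads with more than 1 alignment, 15.9% to 18.5%, against 10.9% to 14.6% elsewhere. Pairs among them also differed less by chi-square over genes per degree of freedom (24.4 to 50.5) than other RP-labelled pairs (69.5 to 183). Whether this bears on the pattern was not tested. Over the RP-labelled tumours the correlation of Crb3 with the adipocyte sum was r = 0.933 (exact permutation p = 0.00714; rho = 0.857, exact permutation p = 0.0238), r was 0.907 without the 2 farthest tumours, and the adjusted p over 27 such relations, chosen after the values were seen, was 0.193. Of the 27 relations, that of Crb3 with the adipocyte sum had the smallest unadjusted p. For the other members that fell, r with the adipocyte sum was 0.476 (Tjp3), 0.541 (F11r) and -0.304 (Cgn). In the RPC-labelled tumours the order of Crb3 did not match that of the adipocyte sum.

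The summed C cell markers were mostly Calca, the calcitonin gene, which made up 77.7% to 92.4% of the sum. By this sum the same 4 RP-labelled tumours were the highest of their group, at 204687 to 233591 CPM, and its correlation with Crb3 over the RP-labelled tumours was r = 0.680 (exact permutation p = 0.104; rho = 0.75, exact permutation p = 0.0663; adjusted p = 0.472 over the 27 relations). By the C cell score, the mean of the z-scored log2 CPM of all 10 markers, the order was different. RP-labelled replicate 1 was then highest at 0.77 and replicate 6 lowest of its group at -0.11. In the RPC-labelled tumours the order of Crb3 was that of the C cell sum, from 25723 CPM in replicate 5 to 138737 CPM in replicate 4, while by score replicates 1 (0.026) and 3 (0.0017) changed places. Over the RP-labelled tumours r with the C cell sum was 0.694 for Tjp3, 0.646 for F11r and 0.162 for Cgn. The highest r of any member with that sum was 0.727, for Marveld3.

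Follicular markers and Crb3 gave r = 0.437 (exact permutation p = 0.375) and rho = 0 (exact permutation p = 1) over the RP-labelled tumours by the summed level. Tg, the thyroglobulin gene, made up 6.66% to 93.3% of this sum over all 12 tumours. Its share was lowest in RPC-labelled replicate 2, where Tg was 26.2 CPM. RP-labelled replicate 1 had the highest sum, 9646 CPM, and the lowest Crb3, but by score RP-labelled replicates 4 (0.82) and 2 (0.72), both high in Crb3, were above replicate 1 (0.60). In RPC-labelled replicates 2, 5, 1, 3 and 4 the follicular sum was 394, 544, 1145, 2126 and 5959 CPM. Crb3 followed this order except that the lowest pair, replicates 2 and 5, changed places, and F11r followed it throughout, with replicates 1 and 3 both at 65.4 CPM.

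**Figure D3:**
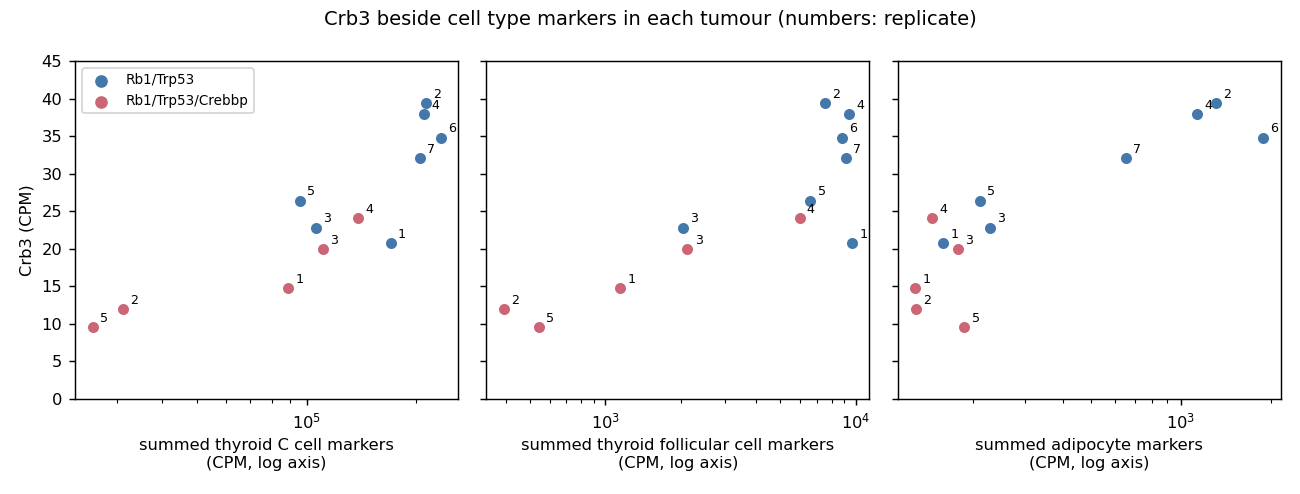
Crb3 in CPM against the summed CPM of cell type markers on a log axis, 1 point per tumour numbered by replicate, coloured by genotype label. RP-labelled replicates 2, 4, 6 and 7 hold both the highest adipocyte sums and the highest Crb3, and RPC-labelled replicates 2 and 5 the lowest C cell sums and the lowest Crb3.

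Fits with these scores, in place of the sums, and without the 4 RP-labelled tumours richest in adipocyte markers gave the following values for the 4 members that fell. Without RP-labelled replicates 2, 4, 6 and 7 together, 0 members were called (3 had an unadjusted p under 0.05) and 40 of all genes were; Tjp3 was at -0.998 (edgeR adjusted p = 0.0755), Cgn at -0.66 (0.178), F11r at -0.40 (0.230) and Crb3 at -0.55 (0.337). With the adipocyte score as a covariate Tjp3 was still called at -0.92, and Cgn (-0.69), F11r (-0.37) and Crb3 (-0.44) were not. With the C cell score Tjp3 was called at -1.06, and Cgn (-0.72), F11r (-0.44) and Crb3 (-0.69) were not. With the follicular score 0 members were called (2, Tjp3 and Cgn, had an unadjusted p under 0.05) and 3 of all genes were; Tjp3 was then at -0.84, Cgn at -0.92, F11r at -0.32 and Crb3 at -0.09. The sign of all 4 was kept in each of these fits, Tjp3 and Cgn kept the most of their size, and Crb3 lost the most. In such fits genotype and the cell make-up of the tumours cannot be told apart as far as the marker sums differ between the groups.

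**Figure D4:**
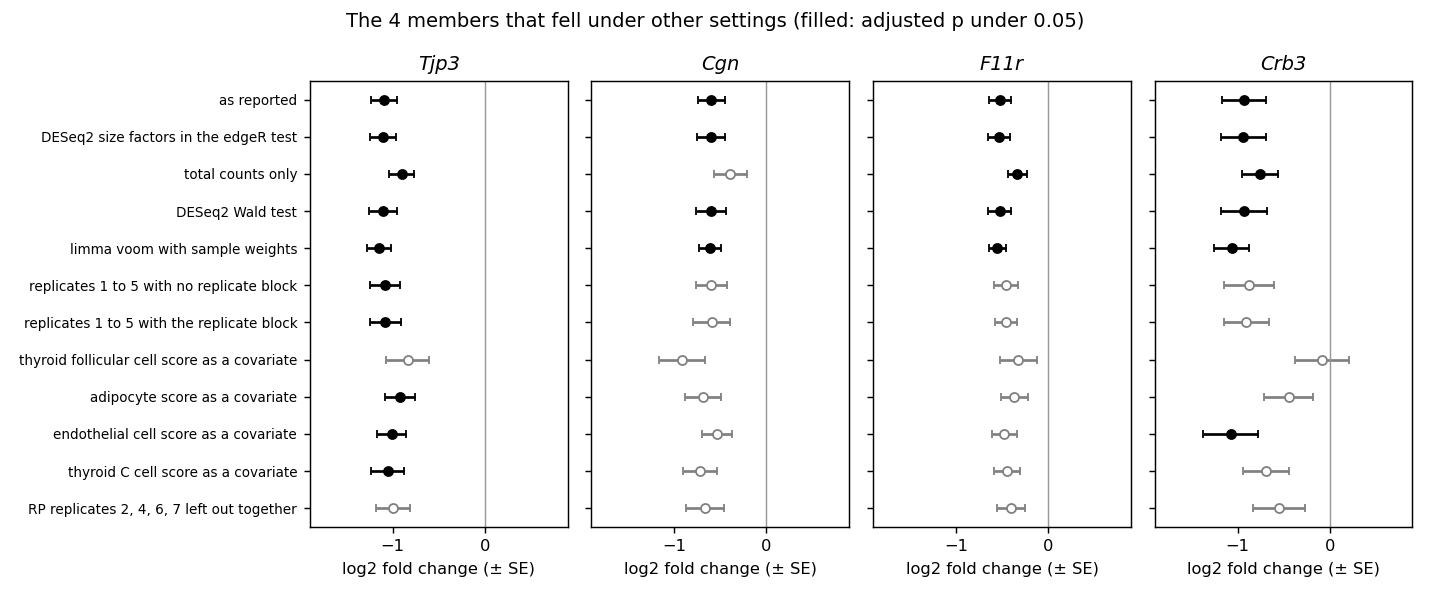
Log2 fold change (± SE) of Tjp3, Cgn, F11r and Crb3, RPC-labelled over RP-labelled, under the reported test and a selection of the other settings, with filled points at an adjusted p under 0.05. Fits with 1 tumour left out are not among those shown. Tjp3 stays near -1.10 in most rows, and Crb3 moves from -0.93 as reported to -0.09 with the follicular score.

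Of the epithelial adhesion genes outside the set that were examined, Cdh1 fell and Epcam did not pass the test. Cdh1, which encodes the adherens junction protein E-cadherin, fell from 215 ± 49.9 (SD, n = 7) to 82.4 ± 36.6 CPM (SD, n = 5), by 1.38 ± 0.26 (SE) on the log2 scale, with an edgeR adjusted p of 0.00782 and groups that did not overlap. Epcam, an epithelial surface adhesion molecule, averaged 1130.2 and 621 CPM (log2 fold change -0.86 ± 0.31 SE; edgeR adjusted p = 0.0651). RPC-labelled replicates 2 and 5, with the least Crb3 and Marveld3, also had the least Cdh1, at 57.2 and 50.8 CPM, and the least Epcam, at 342.5 and 297.9 CPM.

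The other 45 listed genes of tight junctions and polarity, all of which were tested, had calls in both directions. Of these, 5 fell and 7 rose, with a median log2 fold change of 0.09, beside the 8.61% and 9.64% called among all genes. Only 1 of the 45, Cxadr, had groups that did not overlap, beside 6.26% of all genes. Only 4 of the 12 calls, Amotl2, Jam2, Cxadr and Ildr2, held when each tumour was left out in turn. Crb2 lost its call only without RPC-labelled replicate 5 and Tiam1 only without RPC-labelled replicate 2. Cgnl1, Mpdz, Esam, Scrib, Llgl2 and Mylk kept theirs in 3 to 7 of the 12 fits, and RP-labelled replicates 4 and 6 and RPC-labelled replicates 1 and 2 each ended all 6 of these calls when left out. Of 15 plaque and scaffold genes, 2 fell and 1 rose. Cgnl1, the paralogue of cingulin, fell from 59.3 to 40.2 CPM (log2 fold change -0.56 ± 0.16 SE; edgeR adjusted p = 0.0351), and Amotl2, an angiomotin family scaffold, fell from 25.7 to 12.1 CPM (-1.08 ± 0.22 SE; adjusted p = 0.00976). Mpdz, a protein with many PDZ domains, rose from 43.7 to 62.9 CPM (0.52 ± 0.15 SE; adjusted p = 0.0326).

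Among 8 other membrane proteins of junctions, 2 fell and 2 rose. Jam2, a relative of F11r found at endothelial junctions, fell from 12.8 to 7.205 CPM (log2 fold change -0.83 ± 0.19 SE; edgeR adjusted p = 0.0144), and Esam, an endothelial adhesion molecule, fell from 13.004 to 7.40 CPM (-0.81 ± 0.24 SE; adjusted p = 0.0340). Endothelial markers summed to 116 to 248 CPM in RP-labelled and 76.8 to 224 CPM in RPC-labelled tumours, with 1 of 10 called lower, and their part in these changes was not tested. Cxadr, the coxsackievirus and adenovirus receptor of epithelial junctions, rose from 48.0 to 71.5 CPM (0.57 ± 0.10 SE; adjusted p = 0.00676). Ildr2, of the angulin family that marks tricellular contacts, rose from 6.29 to 23.6 CPM (1.90 ± 0.36 SE; adjusted p = 0.00790).

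Among 15 genes of the polarity complexes, 1 fell and 2 rose. Llgl2, a basolateral Lgl protein, fell from 57.1 to 43.8 CPM (log2 fold change -0.38 ± 0.11 SE; edgeR adjusted p = 0.0310), and Scrib, its partner in the Scribble complex, rose from 107.5 to 150.8 CPM (0.49 ± 0.15 SE; adjusted p = 0.0405). Crb2, a paralogue of Crb3, rose from 0.990 to 3.22 CPM (1.70 ± 0.43 SE; adjusted p = 0.0211). Crb2 therefore moved in the opposite direction to Crb3 from a much lower level. Of 7 regulators of small GTPases and myosin at junctions, 0 fell and 2 rose. These 2 alone of the 7 had an unadjusted p under 0.05, beside 35.6% of all tested genes. That threshold was passed by 7 of 15 plaque and scaffold, 7 of 8 membrane and 7 of 15 polarity genes. Over all 45 listed genes 23 passed it. Tiam1, a Rac exchange factor that acts with the Par complex, rose from 17.04 to 26.3 CPM (0.63 ± 0.15 SE; adjusted p = 0.0197), and Mylk, the myosin light chain kinase, rose from 30.9 to 56.7 CPM (0.88 ± 0.26 SE; adjusted p = 0.0340).

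**Figure D5:**
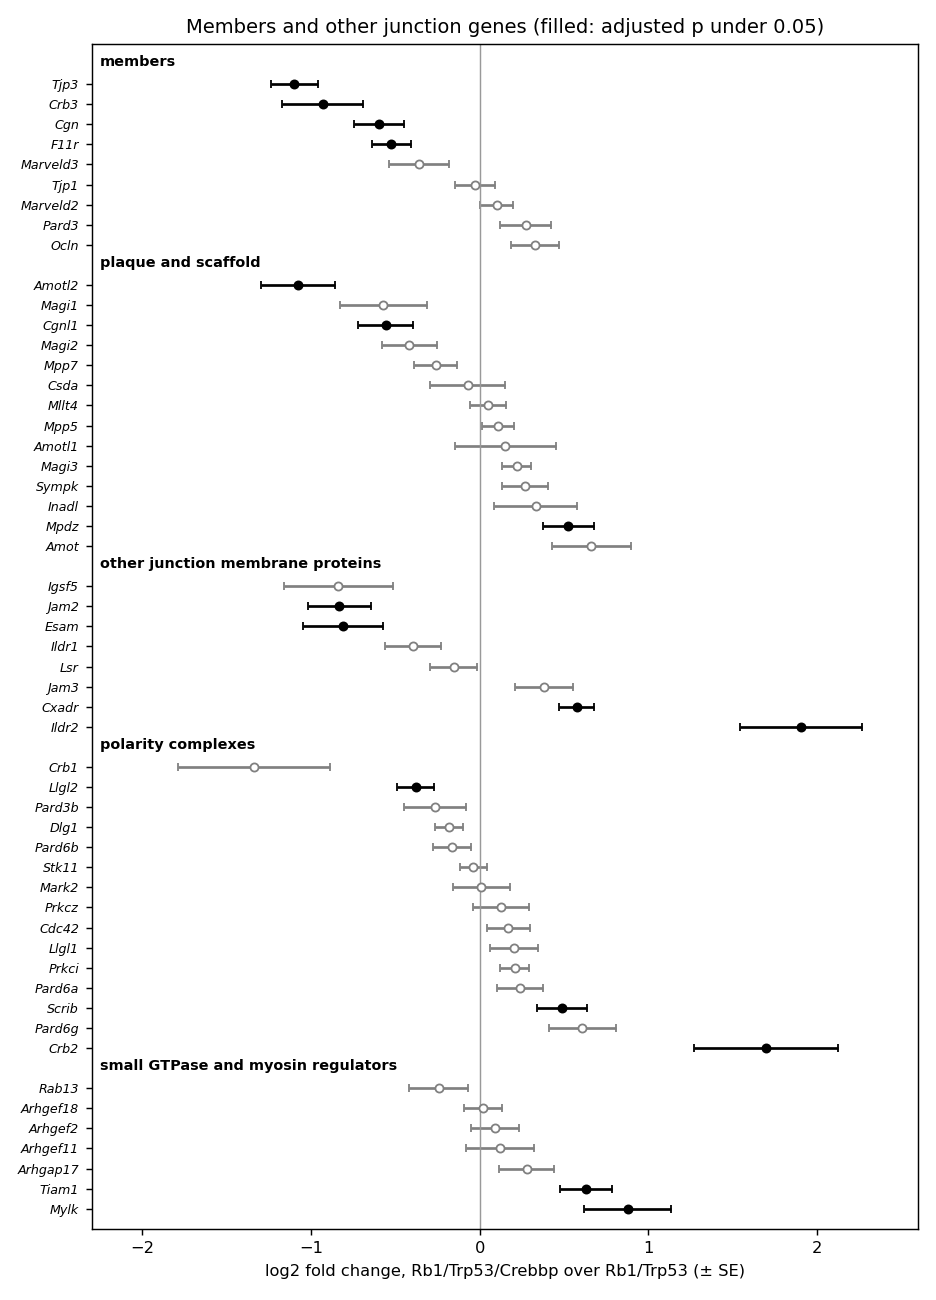
Log2 fold change (± SE), RPC-labelled over RP-labelled, of the 9 members and of other listed junction and polarity genes, grouped by role, with filled points at an adjusted p under 0.05. The 4 filled members lie below 0, and the 12 filled points of the other lists lie on both sides, from -1.08 for Amotl2 to 1.90 for Ildr2.

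The genes whose levels most resembled the members that fell were named over all 12 tumours by Pearson r of log2 CPM, which includes the difference between genotypes and is given as a description. For Tjp3 they were Reep6 (r = 0.972), Glt28d2 (0.961) and Tgfbr3 (0.959). For Cgn they were Fgd6 (0.907), Gpsm1 (0.903) and Pcdhga12 (0.902), and for F11r they were Slc35c1 (0.956) and Wfs1 (0.952). For Crb3 they were Cdk8 (0.975), Ager (0.975) and Sec11c (0.973). The best match of Cgn was less close than that of the other 3, and no gene appeared in more than 1 of these lists.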

How the data were processed

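Per the labels' protocols, TRIzol RNA was enriched for mRNA on oligo dT beads before NEBNext Ultra RNA library preparation. The submitters' processing notes name bcl2fastq 1.8.2, HTSeq 0.6.1, TopHat2 2.0.12 and build mm9; annotation and strandedness of counting are unstated in the sources used here. Each tumour's deposited table holds raw counts from the authors, with 23284 gene rows and 5 summary rows. Neither library sizes nor tests include those summary rows; unassigned reads (outside genes) were 13.1% to 17.6% of a table and reads with more than 1 alignment 10.9% to 18.5%. A count of 3, taken as the floor, was 0.0502 to 0.312 CPM, which covers counting error only. Libraries of the same group all differed by more than sampling noise.

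Counts were filtered by filterByExpr (minimum count 10), scaled by TMM and tested with edgeR 4.0.16 (robust quasi-likelihood F test, all 12 tumours, no covariates, Benjamini-Hochberg adjustment) in R 4.3.3 with limma 3.58.1. The standard error is the log2 fold change divided by the square root of F. Log2 CPM used a prior count of 2. Single values were compared by exact two-sided permutation tests in scipy 1.17.1. Promoter sequences came from RefSeq (GRCm38.p6), which is not the build of the counts; exon lengths and overlaps came from GENCODE M21.

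The members and gene lists were chosen with earlier results of these data known. Named were all 9 members, up to 4 called genes of each pathway list by smallest p, Crebbp, Cdh1 and Epcam, and for each called member the 3 other genes with the highest r; some genes that meet this rule are not reported here. Apba3 and Dennd1c fall outside this rule and were added with their values known. Ybx3 was matched under its older symbol Csda. On simulated counts for these groups, with 200 of 14905 genes changed, recovery was 16.9% at 1.5-fold, 58.2% at 2-fold and 90% at 4-fold, and 1 of 111 calls was false. Results were recomputed with other scalings and filters, DESeq2 1.42.0, limma voom (weighted samples), Calca left out, a block for the tumour number, marker scores as covariates, and leaving out tumours.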

Additional observations from a re-analysis of the deposited data

Results flagged for a closer look

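Among 24 groups of values, for 12 genes (the 9 members, Crebbp, Cdh1 and Epcam) in each genotype, 1 held a tumour far from the others. Crebbp in RP-labelled replicate 1 was 98.9 CPM, against a group median of 49.3 CPM, and its gap to the next tumour was 0.763 of the group's range, above the critical value of 0.568. By chance about 1 in 20 such groups would be picked out. None of the 18 groups of member values was picked out by this criterion.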

How the results depend on the processing

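Against 2736 genes called in the reported test, other settings called 6352 (limma voom), 463 and 868 (replicates 1 to 5 of both groups with and without the tumour number as a replicate block), 3 (follicular score), 68 (adipocyte score), 1011 (endothelial score), 202 (C cell score), 40 (without RP-labelled replicates 2, 4, 6 and 7) and 4180 (without RPC-labelled replicate 4 and RP-labelled replicate 3); the last 3 were chosen after seeing the data. Leaving out 1 tumour gave 1074 (without RPC-labelled replicate 2) to 3510 (without RP-labelled replicate 3). Of the members, 1 was called lower with the replicate block and 1 in the same tumours without it (Tjp3 in both), 0 with the follicular score, 1 with the adipocyte and 1 with the C cell score, 2 with the endothelial score (Tjp3 and Crb3), 0 without the 4 RP-labelled tumours, and 2 to 4 with 1 tumour left out. Members called higher were 1 with total counts as the only scaling (Ocln) and 1 with limma voom (Pard3). Scaling by total counts moved the median of all genes to 0.18; Ocln was then at 0.51 (edgeR adjusted p = 0.0466) and Cgn at -0.39 (edgeR adjusted p = 0.123). Among the 45 other junction genes, lower and higher calls were 2 and 13 (total counts), 13 and 15 (limma voom), 0 and 2 (replicate block), 2 and 4 (the same tumours without it), 0 and 0 (follicular, adipocyte or C cell score, or without the 4 RP-labelled tumours), 2 and 4 (endothelial score), 10 and 11 (without RPC-labelled replicate 4 and RP-labelled replicate 3), and 2 to 9 and 3 to 10 with 1 tumour left out. The sign changed for Tjp1 with total counts (0.15), limma voom (0.0018), and the follicular (0.10), endothelial (0.0545) and C cell scores (0.0543), and ranged from -0.10 to 0.017 with 1 tumour left out; for Marveld2 with the follicular (-0.043) and adipocyte scores (-0.021); for Marveld3 (0.11) and Pard3 (-0.038) with the follicular score. The cause of these changes was not tested. The 4 members that fell kept their sign in every setting. Tumours with the same number showed little shared deviation (r from -0.056 to 0.159 for 5 pairs), and only 1 RPC-labelled tumour correlated best with its own number. The highest r of any RPC-labelled with any RP-labelled tumour was 0.325. These values do not settle what the tumour number stands for. In the simulated data, with 200 of 14905 genes changed, most changes of 1.5-fold were not recovered. In the tumours 18.3% of tested genes were called, so the simulated recovery need not hold for them.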
